A study of Triticum aestivum with 34 samples.

Results

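TEOSINTE BRANCHED 1 (TB1) genes were followed in basal and central spikelets of wheat (Triticum aestivum), the units of the ear that carry the florets. The members were chosen by their deposited description, which had to contain the name TEOSINTE BRANCHED 1, and by their level, with an FPKM of 1 or more in 2 or more libraries. FPKM is the number of fragments scaled for transcript length and library total, so levels can be set side by side between genes of different length. Of 162233 gene models in the table, 5 had the description and 2 of these reached the level. The higher was TraesCS5D03G0003700 (assembled model MSTRG.35130), on the minus strand of chromosome 5D, from 2517220 to 2518242. The lower was TraesCS5A03G0003300, on the minus strand of chromosome 5A, from 2269703 to 2270692. They are called the 5D and the 5A copy here.

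The 3 models that missed the level were TraesCS5B03G0003800 (the 5B copy; chromosome 5B, from 2702541 to 2703727, minus strand), TraesCS4A03G0702300 (the 4A copy; chromosome 4A, from 581754927 to 581756501, minus strand) and TraesCS4D03G0066700 (the 4D copy; chromosome 4D, from 18876554 to 18885103, plus strand). The rows of chromosome group 5 were described as TB1-like and those of chromosome group 4 as the wheat TB1 protein, so the 2 members carry the TB1-like description. Coordinates are those of the file, which was not labelled with a build. RefSeq's annotation of Chinese Spring v2.1 has a protein-coding gene at 93.9% of the 55398 tested models of high confidence, against 6.4% after a shift of 5 Mb, and the coordinates are read in that build. The 5D model lay within such a gene, as did the 4A model, and the 5B and 4D models overlapped one, while the 5A model is placed by the file alone. Just inside the threshold was the 5A copy, with 4 libraries at FPKM 1 or more and a highest value of 1.27, and just outside was the 5B copy, with none and a highest value of 0.88.

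TB1 belongs to the TCP family of plant transcription factors. In maize it holds back the outgrowth of axillary buds, and its Arabidopsis relative BRANCHED1 does the same, acting through homeobox-leucine zipper genes and the abscisic acid synthesis enzyme 9-cis-epoxycarotenoid dioxygenase. In wheat TB1 is known for effects on tillering and on the number of spikelets at a node of the ear, where its protein interacts with the florigen FLOWERING LOCUS T.

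All plants were of the genotype shimai22 and untreated. Spikelets from the base and from the centre of the ear were sampled at day 6, 9, 12, 15, 21 and 27 after the terminal spikelet stage, when the ear has formed its last spikelet. There were 17 basal and 17 central libraries, with 3 in each of the 12 groups but 2 at basal day 15 and at central day 21. The labels do not say whether replicates came from separate plants or how many ears were pooled, so p-values measure the spread between these libraries, which may be technical. Library totals were 95144712 to 126139684 estimated counts, with 49060 to 55909 models at FPKM 1 or more. The 41 tested models on a list of inflorescence and floral meristem genes had a summed FPKM of 498.6 to 1017 in every library, and none of them was at 0 in any group.

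The 5D copy had higher levels in basal than in central spikelets from day 6 to day 21, and its highest level was in basal spikelets at day 6. At day 6 its FPKM was 7.72, 6.46 and 7.41 in the basal libraries and 0.97, 1.06 and 1.31 in the central ones. At day 9 it was 4.55, 3.59 and 2.64 in basal and 0.35, 0.36 and 0.42 in central libraries. On both days every basal library lay above every central library, and both positions were lower at day 9 than at day 6. At day 12 the FPKM was 1.68, 1.98 and 1.96 in basal and 0.36, 0.13 and 0.18 in central libraries. At day 15 it was 1.07 and 0.86 in basal and 0.51, 0.29 and 0.52 in central libraries. The groups were apart on both days, with a narrower gap at day 15. At day 21 the FPKM was 1.19, 1.44 and 1.45 in basal and 0.18 and 0.25 in central libraries. At day 27 it was 0.44, 0.80 and 0.40 in basal and 0.24, 0.82 and 1.27 in central libraries. At day 27 the groups overlapped, and the lowest library and the highest were central ones.

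Differences were tested with edgeR's quasi-likelihood test on the counts of 71963 models, adjusted by Benjamini-Hochberg over all of them, and are log2 basal minus central with the standard error (SE). The 5D copy was higher in basal spikelets by 2.76 ± 0.27 at day 6 (adjusted p = 3.23e-08), where the mean FPKM of 7.20 ± 0.66 (SD, n = 3) was 6.46 times the central 1.11 ± 0.18 (SD, n = 3). It was higher by 3.24 ± 0.33 at day 9 (adjusted p = 1.34e-08) and by 3.0 ± 0.40 at day 12 (adjusted p = 3.12e-06). At day 21 the difference was 2.77 ± 0.47 (adjusted p = 0.000146). At day 15 it was 1.03 ± 0.42 and did not pass the threshold of 0.05 (adjusted p = 0.078, edgeR). At day 27 it was -0.42 ± 0.38 (adjusted p = 0.484), so neither direction was called, and it ran from -0.87 without central day 27 replicate 1 to 0.18 without central day 27 replicate 3. The day 15 result turned on libraries of another day, since it passed without central day 27 replicate 1 (adjusted p = 0.0232) and without central day 27 replicate 3 (adjusted p = 0.0426).

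The 5A copy had lower levels than the 5D copy early on and lay at an FPKM of 0.14 or less in every central library. Its FPKM was 0.90, 0.94 and 1.07 in basal and 0, 0.10 and 0.06 in central libraries at day 6. It was 0.95, 0.94 and 0.93 in basal libraries at day 9, and the 3 central libraries were at 0. The groups did not overlap on either day, and the basal level was much the same on both. At day 12 the FPKM was 0.46, 1.09 and 0.52 in basal and 0, 0.07 and 0 in central libraries. At day 15 it was 0.42 and 0.48 in basal and 0.05, 0.05 and 0.12 in central libraries. Basal day 12 replicate 2 was about level with day 6, and the other basal libraries of these days were lower. At day 21 the FPKM was 1.27, 0.67 and 1.22 in basal and 0.03 and 0.14 in central libraries. At day 27 it was 0.34, 0.12 and 0.05 in basal and 0.06, 0.03 and 0.05 in central libraries. The groups were apart through day 21 and overlapped at day 27.

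Central libraries held 0 to 19 counts of the 5A copy, so the size of its fold is poorly set and is given as a bound where the central group was at 0. Against a floor of 12 counts per library, the basal level at day 9 was at least 9.08-fold higher. The basal excess of the 5A copy passed edgeR's test at day 6 (adjusted p = 5.72e-06), day 9 (adjusted p = 1.65e-07), day 12 (adjusted p = 3.79e-05), day 15 (adjusted p = 0.0114) and day 21 (adjusted p = 8.44e-05), and not at day 27 (adjusted p = 0.13). Without basal day 15 replicate 2 the day 15 call was lost (adjusted p = 0.0753). All 4 libraries in which the 5A copy reached FPKM 1 were basal, so it entered the test through the position in which it is high, and its calls are a description of its values. The 5D copy reached FPKM 1 in 13 basal and 3 central libraries.

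**Figure D1:**
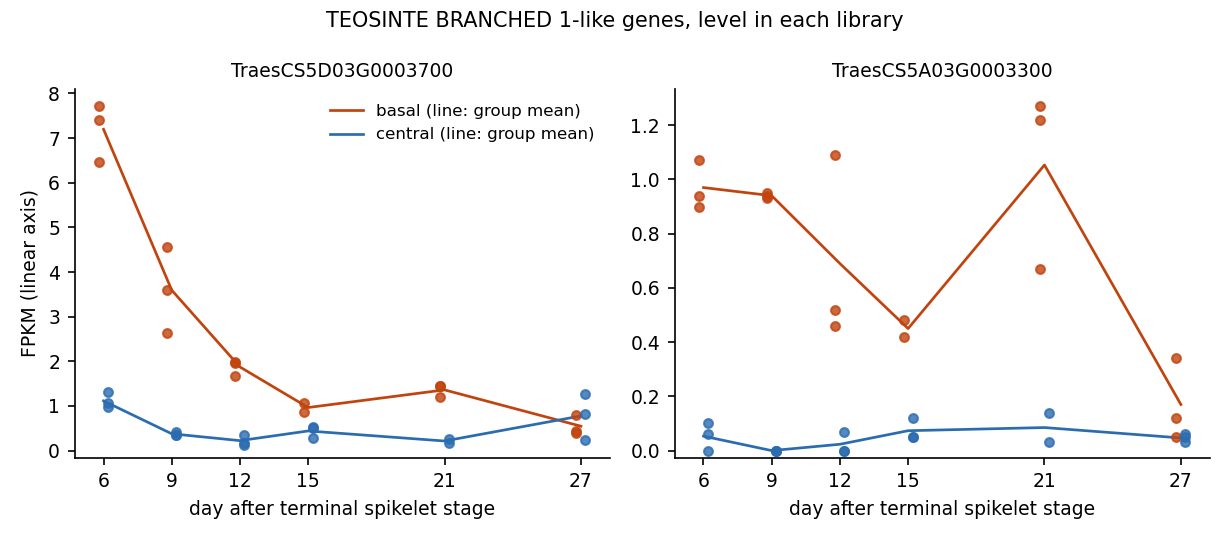
FPKM of the 5D copy and the 5A copy in every library (points) by day after the terminal spikelet stage, with the group means, for basal and central spikelets. The basal points lie above the central points from day 6 to day 21 for both copies and overlap them at day 27. The vertical scales of the panels differ.

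The share of all 71963 tested models that were called higher in basal spikelets was 7.91% at day 6, 18.1% at day 9, 13.6% at day 12, 8.89% at day 15, 10.2% at day 21 and 11.3% at day 27. The split of all calls differed between edgeR on counts and limma on log2(FPKM + 1), and least at day 9. There 13018 models were higher and 13111 lower by edgeR, against 12779 and 12695 by limma. At day 12 the numbers were 9775 and 10423 against 11706 and 9495. By edgeR 5692 models were higher and 6617 lower at day 6, against 3544 and 7512 by limma on log2(FPKM + 1). The numbers were 6396 and 9949 against 11315 and 8254 at day 15, 7348 and 4953 against 5433 and 9254 at day 21, and 8122 and 7475 against 7424 and 11691 at day 27. Both members were among the models called higher by edgeR at day 6, 9, 12 and 21, the 5A copy alone at day 15, and neither at day 27. In the mean of the 6 days 16.0% of tested models were called higher, and both members were among them. The 5D copy was higher by 2.06 ± 0.16 (adjusted p = 1.21e-10, edgeR), with a mean FPKM of 2.68 over the basal and 0.542 over the central libraries. By size of this difference it stood at place 325 of 71963 models and by p at place 322. For the 5A copy the mean was 0.728 over the basal and 0.0447 over the central libraries (adjusted p = 7.44e-11). Its difference with day 9 left out, so that no central group was at 0, was 3.37 (adjusted p = 9.52e-09). In bulk spikelets a gene at a lower level in each cell and a gene expressed in fewer cells cannot be told apart.

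The basal minus central difference of the 5D copy changed over the days (F test over 5 contrasts, edgeR, adjusted p = 7.61e-06). A change of this kind was called for 56.7% of all tested models, so the call by itself is common in this series. For the 5A copy it did not pass (adjusted p = 0.0573), and it did without basal day 12 replicate 1 or 2, central day 12 replicate 2, basal day 21 replicate 2, central day 21 replicate 1 or basal day 27 replicate 1. Over all fits with 1 library left out its adjusted p was 0.0221 to 0.108 (edgeR).

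**Figure D2:**
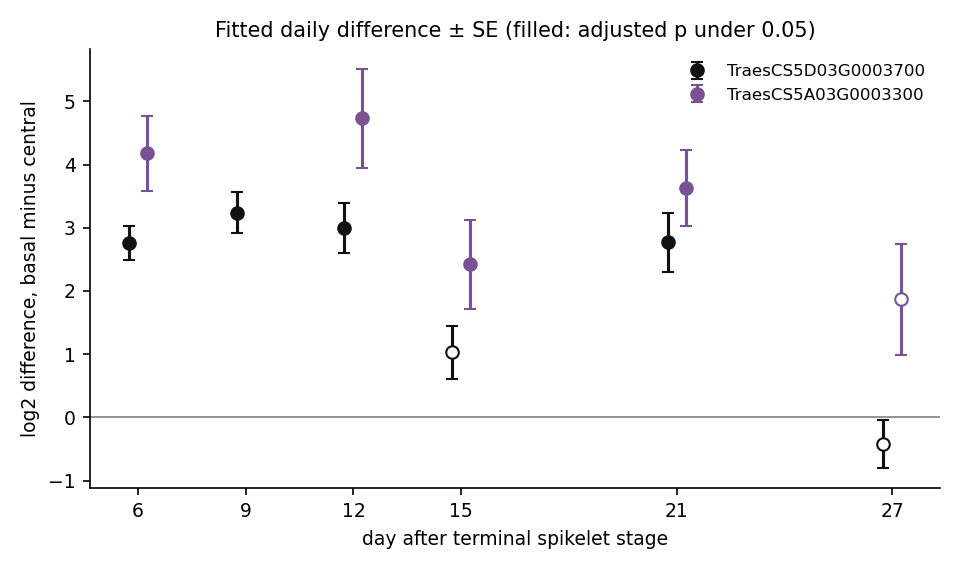
Log2 basal minus central difference with its SE for the 5D and the 5A copy at each day, from edgeR. The 5D copy lies between 2.76 and 3.24 from day 6 to day 12, at 1.03 at day 15, at 2.77 at day 21 and at -0.42 at day 27. The 5A point of day 9 is left out because the central group was at 0.

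Within basal spikelets the level of the 5D copy was highest at day 6 and lowest at day 27. Ordered by mean FPKM, the basal groups were day 6 (7.20), day 9 (3.59), day 12 (1.87), day 21 (1.36), day 15 (0.965) and day 27 (0.547), and no group overlapped the next. The central groups were day 6 (1.11), day 27 (0.777), day 15 (0.44), day 9 (0.377), day 12 (0.223) and day 21 (0.215), and each overlapped the next in this order. Over all 12 groups, basal day 6, 9 and 12 stood above the rest without overlap, and from basal day 21 down each group overlapped the next. The day course was called in basal spikelets (adjusted p = 8.62e-12) and in central spikelets (adjusted p = 2.94e-05), as it was for 92.1% and 88.1% of tested models by edgeR. Among the central groups, day 27 had the largest SD, at 0.52.

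The basal order of the 5A copy was different, with day 21 (1.05) first, then day 6 (0.97), day 9 (0.94), day 12 (0.69), day 15 (0.45) and day 27 (0.17). Only day 15 and day 27 were neighbours without overlap, so the order of neighbours among the first 5 is not set beyond the spread. Its day course was called in basal spikelets (adjusted p = 0.0001, edgeR) and not in central ones (adjusted p = 0.146), where every value was 0.14 or less.

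Each basal group from day 9 to day 15 was also set against the central group of the sampling before it. The 5D copy was higher in basal day 9 than in central day 6 by 1.62 ± 0.28 (adjusted p = 0.000115, edgeR), where 13.2% of tested models were called higher. In that comparison 9511 models were higher and 7739 lower by edgeR, and 11276 and 5471 by limma. It was higher in basal day 12 than in central day 9 by 2.28 ± 0.36 (adjusted p = 2.13e-05), with 15.0% called higher, and in basal day 15 than in central day 12 by 2.11 ± 0.48 (adjusted p = 0.00198), with 12.4%. The 5A copy was called higher in all 3 of these comparisons, with adjusted p of 1.32e-05, 3.46e-06 and 0.00115. These comparisons use libraries of the same-day ones and are not separate evidence.

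The 3 copies below the level also lay higher in basal spikelets. The 5B copy had FPKM of 0.61, 0.27 and 0.66 in basal and 0.15, 0.17 and 0.16 in central libraries at day 6. At day 9 it was at 0.77, 0.60 and 0.52 in basal and at 0.08, 0.08 and 0.09 in central libraries. It stayed above the central groups without overlap through day 21, and at day 27 both positions were at 0.14 or less. The 4D copy had 0.65, 0.55 and 0.65 in basal and 0.22, 0.07 and 0.19 in central libraries at day 6, and 0.50, 0.40 and 0.33 against 0.12, 0 and 0.02 at day 9. The 4A copy had 0.21, 0.21 and 0.43 in basal and 0.09, 0.02 and 0.02 in central libraries at day 6, and 0.14, 0.27 and 0.13 against 0 in all 3 at day 9. Both copies of chromosome group 4 were at 0.15 or less from day 12 on and at 0 in all 6 libraries of day 27.

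These low copies could be tested only in a fit of all 162233 models with no filter on level, which was added after the data had been seen. There 2.62% of models were called higher in basal spikelets at day 6, 6.64% at day 9, 5.15% at day 12, 3.79% at day 15, 3.55% at day 21, 4.67% at day 27 and 6.05% in the mean of the 6 days. The 5B copy was called higher by 1.76 ± 0.42 at day 6 (adjusted p = 0.00618, edgeR) and by 2.82 ± 0.48 at day 9 (adjusted p = 2.58e-05). It was also called at day 12, 15 and 21, and not at day 27 (adjusted p = 0.812). The 4D copy was called higher at day 6 (1.96 ± 0.39, adjusted p = 0.00113), day 9 (2.98 ± 0.56, adjusted p = 0.000188) and day 12 (3.92 ± 1.17, adjusted p = 0.0245). The 4A copy was called on the same 3 days, with adjusted p of 0.00317, 0.000358 and 0.0251. Neither was called on the later days, on which counts ran from 0 to 23.

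**Figure D3:**
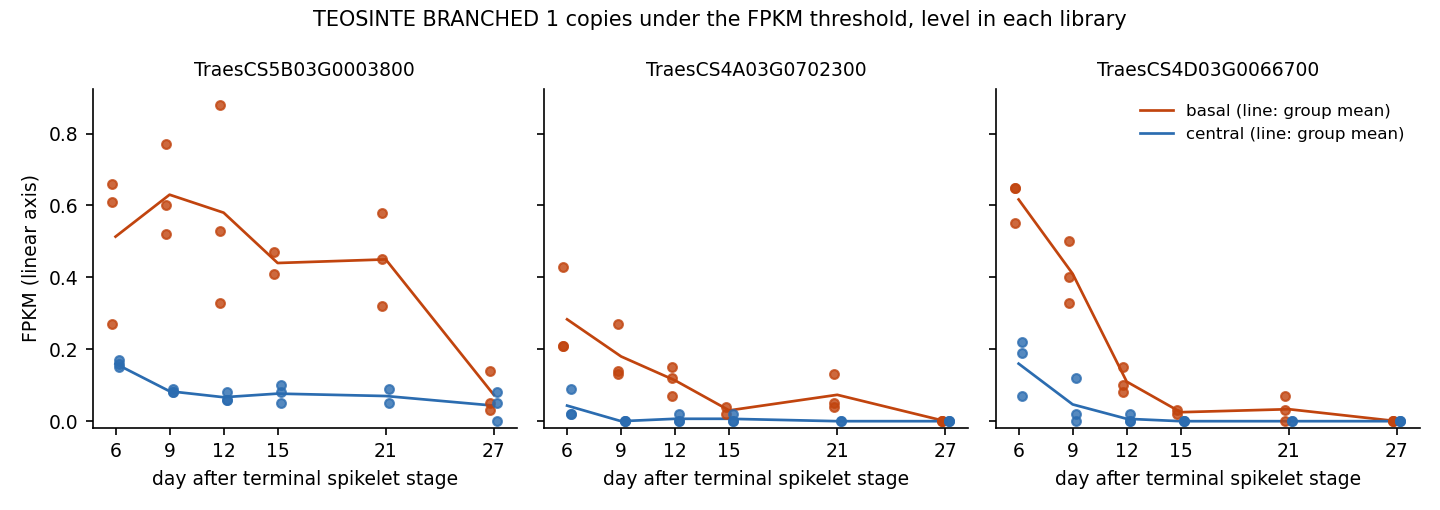
FPKM of the 5B, 4A and 4D copies, which missed the level of FPKM 1, in every library (points) by day, with group means, for basal and central spikelets. Basal points lie above central points at day 6 and 9 in all 3 panels, and the 4A and 4D copies are at 0 in every library of day 27.

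Near-identical copies on related wheat chromosomes may share reads, whose assignment is not given in the sources used here. Counts were therefore also summed over the copies of a chromosome group. The sum of the 3 copies of group 5 was higher in basal spikelets by 2.33 ± 0.13 in the mean of the 6 days (adjusted p = 5.78e-15, edgeR), by 1.57 ± 0.34 at day 15 (adjusted p = 0.00142) and by -0.03 ± 0.33 at day 27, where it was not called (adjusted p = 1). The sum of the 2 copies of group 4 was higher by 2.14 ± 0.38 at day 6 (adjusted p = 0.000225), by 3.46 ± 0.57 at day 9 (adjusted p = 1.8e-05) and by 3.90 ± 0.94 at day 12 (adjusted p = 0.00424). It was not called at day 15 (adjusted p = 0.308, edgeR) and was at day 21 (adjusted p = 0.0453), where the central group was at 0. With both positions at 0 at day 27, its mean of the 6 days could not be estimated.

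The 5D copy held most of the summed FPKM of the group 5 copies in basal spikelets early and less later. Its share of the sum was 83.0% at day 6 (81.1 to 84.2% over the 3 libraries), 69.0% at day 9, 60.9% at day 12, 51.9% at day 15 and 47.6% at day 21 (42.8 to 53.5%). At day 27 it was 68.3% of a sum of 0.79 FPKM. The 5A copy held 11.2% at day 6 and 36.6% at day 21. In central spikelets the 5D copy held 60.7 to 87.3% of the sum in the group means, and these sums were 0.313 to 1.33 FPKM, so the shares rest on few counts.

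**Figure D4:**
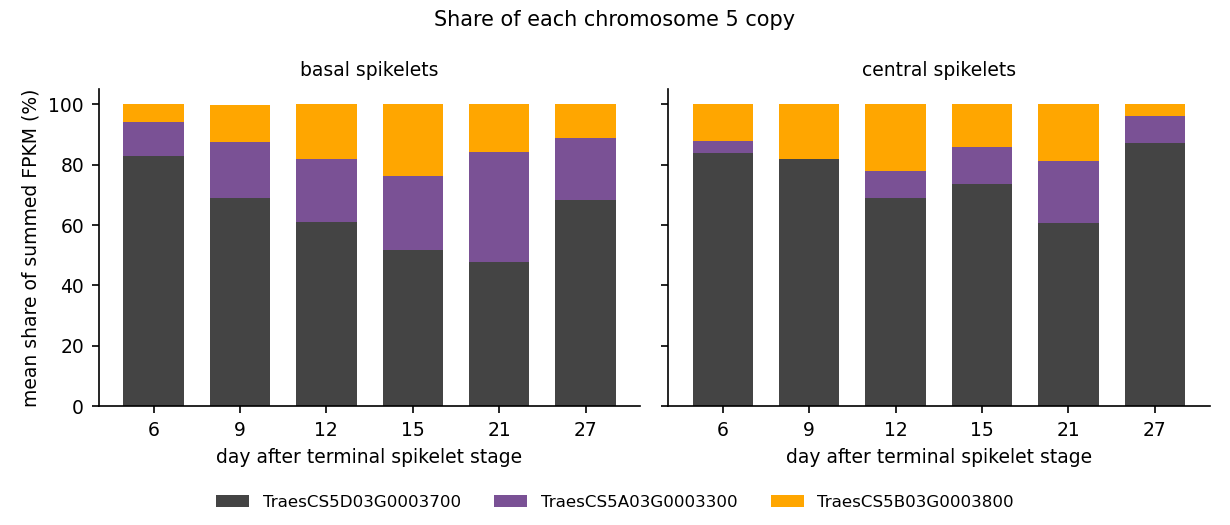
Percent of the summed FPKM of the 3 copies on chromosome group 5 held by each copy, by day, for basal and central spikelets. In basal spikelets the share of the 5D copy goes from 83.0% at day 6 to 47.6% at day 21.

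The log2 ratio of the 5D to the 5A copy in the same library, with 0.1 added to each FPKM, was compared between positions with the labels permuted within each day. It was 0.472 lower in basal spikelets (two-sided permutation test, 100000 resamples, 1 pair of genes, difference -0.472, p = 0.0224). The direction depended on the value added, since with 1 added to each FPKM the ratio was 0.348 higher in basal spikelets (permutation p = 0.00567). On counts with 1 added the difference was -1.91 (permutation p = 8e-05). The 5A copy was at an FPKM of 0.14 or less in every central library, so the ratio there rests largely on the value added. The test therefore cannot decide whether the copies differ between positions by different amounts. The call was also lost without central day 12 replicate 1 (p = 0.0549, permutation), basal day 27 replicate 1 (p = 0.0515, permutation) or central day 27 replicate 3 (p = 0.0524, permutation).

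The copies fell into patterns by their levels over the 34 libraries, which share position and day. Pearson's r of log2(FPKM + 1) was 0.914 between the 5D and 4D copies and 0.888 between the 5D and 4A copies. It was 0.862 between the 5A and 5B copies, 0.779 between the 5D and 5A copies, 0.769 between the 5D and 5B copies and 0.615 between the 4D and 5A copies. Several of these copies were at or near 0 in many libraries, so r is a description of where they were detected.

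Among 51207 other tested models with a description and a mean FPKM of at least 1, the pattern most like the 5D copy over the 34 libraries was that of TraesCS6B03G0936900, a probable trehalose-phosphate phosphatase 4 (r = 0.929), an enzyme that removes the phosphate of the sugar signal trehalose 6-phosphate. Next were TraesCS1D03G0234600, an auxin receptor of the TRANSPORT INHIBITOR RESPONSE type (r = 0.894), TraesCS3D03G0324800 (r = 0.89) and TraesCS6D03G0668100 (r = 0.877), both without a described function, and the MADS-box factor TaAGL7, TraesCS1D03G0514700 (r = 0.874). The mean FPKM of the trehalose-phosphate phosphatase at day 6 was 6.09 ± 1.08 in basal and 1.13 ± 0.17 in central spikelets (SD, n = 3 each). Most like the 5A copy were the EARLY RESPONSIVE TO DEHYDRATION 15-like TraesCS3A03G0889500 (r = 0.901) and TraesCS3B03G1016200 (r = 0.879), the undescribed TraesCS2B03G1047500 (r = 0.891), the homeobox gene HOX12, TraesCS4A03G0078800 (r = 0.879), and the MADS-box transcription factor 56, TraesCS1A03G0533300 (r = 0.87).

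The tested genes next to the members on the chromosome all had values below 0. Of these 4 genes 2 were called lower in the mean of the 6 days, as were 17.5% of all tested models. Counts of 4 genes are too few to be read as a local pattern. The nearest tested model after the 5D copy, 147 kb away, was TraesCS5D03G0004700, a sucrose-phosphatase 2-like gene, and it was lower in basal spikelets, with a log2 difference of -0.19 ± 0.03 in the mean of the 6 days (adjusted p = 3.55e-05, edgeR). The one before it, TraesCS5D03G0003400, was at -0.18 ± 0.10 (adjusted p = 0.164), and was called lower with day 9 left out (-0.37, adjusted p = 0.0107) and without basal day 6 replicate 2 (-0.27, adjusted p = 0.0431). Beside the 5A copy, CCD-A1 (TraesCS5A03G0002500, 202 kb before) was at -0.19 ± 0.05 (adjusted p = 0.00583, and 0.229 with day 9 left out), and TraesCS5A03G0003700LC, 356 kb after, at -0.65 ± 0.32 (adjusted p = 0.114, and 0.0469 without basal day 27 replicate 2).

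Gene groups linked to TB1 or BRANCHED1, with other TCP factors and cell division genes beside them, were read in the mean of the 6 days, in which 16.0% of tested models were called higher and 17.5% lower in basal spikelets, with a median log2 difference of -0.00449 over all of them. The lists were chosen with earlier results of these data known, so their counts are no test of a link to TB1. Homeobox-leucine zipper genes named HOX12 or HOX14, the class that acts downstream of BRANCHED1 in Arabidopsis, had 6 of 8 higher, 1 lower and a median of 1.65. HOX12 TraesCS4A03G0078800 was at 43.5 ± 2.1 FPKM in basal and 5.30 ± 0.60 in central spikelets at day 6 (SD, n = 3 each), and its difference was 2.79 ± 0.08 (adjusted p = 3.52e-19, edgeR). The HOX12-like TraesCS4D03G0623900 differed by 3.02 ± 0.10. Genes for 9-cis-epoxycarotenoid dioxygenase, the abscisic acid synthesis step, had all 6 tested of 7 higher, with a median of 1.31. Among them TraesCS5B03G0943700 was at 0.793 ± 0.202 FPKM in central and 7.63 ± 0.35 in basal spikelets at day 9 (SD, n = 3 each), and TraesCS5D03G0099600 at 0.423 ± 0.012 and 5.14 ± 0.55.

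Dormancy-associated genes, transcripts of which mark resting buds in other plants, had 8 of 16 tested higher, 1 lower and 7 not called, with a median of 0.42. The dormancy-associated protein 1-like TraesCS4D03G0130800 was higher by 2.42 ± 0.07 (adjusted p = 3.52e-19, edgeR) and TraesCS4A03G0646200 by 1.80 ± 0.06. Of the BLADE-ON-PETIOLE-like genes, which act in organ boundaries, 3 of 5 were higher, with a median of 0.30. These were small differences, with NPR5 TraesCS5B03G0369500 at 0.40 ± 0.08 and NH5.2 TraesCS5A03G0381200 at 0.30 ± 0.07.

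Of the strigolactone genes, whose hormone holds back axillary buds, 15 of 38 were tested, and 7 were higher, 3 lower and 5 not called, with a median of 0.24. The receptor D14 was higher in the copies TraesCS4D03G0618500 (0.74 ± 0.06) and TraesCS4B03G0690300 (0.84 ± 0.07). Of the other TCP factors, 38 of 48 were tested, with 10 higher, 2 lower and 26 not called and a median of 0.05. The TCP20-like TraesCS3D03G0943600 (0.40 ± 0.05) and TraesCS3B03G1163000 (0.29 ± 0.05) had the smallest p among them. The count of higher TCP factors was above the 16.0% of all models, and their median lay near that of all models.

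Florigen genes, whose proteins bind TB1 in wheat, had 7 of 24 tested, of which 1 was higher, 1 lower and 5 not called, with a median of -0.09. The flowering locus T model TraesCS7B03G0031800 was lower, at -1.46 ± 0.49 (adjusted p = 0.0209, edgeR), and lost the call without central day 6 replicate 3 (adjusted p = 0.0653). Its FPKM at day 6 was 0.137 ± 0.119 in basal and 0.18 ± 0.104 in central spikelets (SD, n = 3 each). The mean over all libraries was 3.31 in basal and 3.95 in central ones. With a level near 0 early on, the size of its difference is poorly set. Cell division genes had 22 of 102 tested of 129 higher, 4 lower and 76 not called, with a median of 0.05, and with day 9 left out 13 were higher. Cyclin-D2-1 TraesCS5A03G0521100 was higher by 0.66 ± 0.09 and Cyclin-D3-1 TraesCS5B03G0634500LC by 0.25 ± 0.03. None of the 7 SPL14 or SPL17 models and none of the 4 spikelet meristem models reached the level to be tested.

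**Figure D5:**
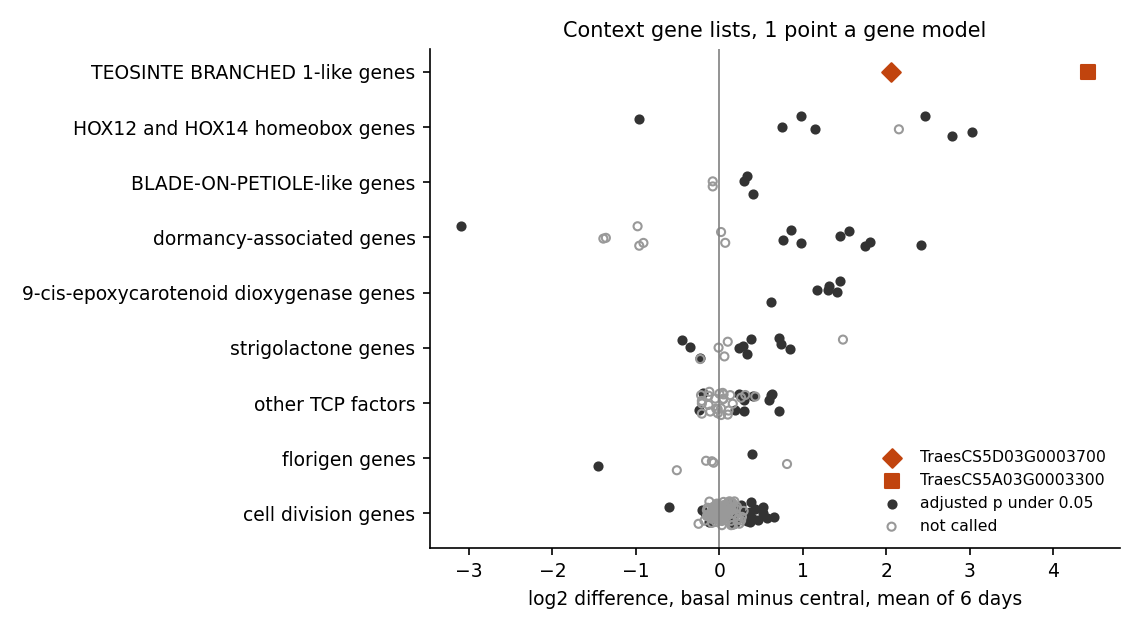
Log2 basal minus central difference in the mean of the 6 days, 1 point a model, from edgeR. Shown are the 2 TB1 members and every tested model of the context lists. The SPL14 and SPL17 list and the spikelet meristem list had no tested model and are not drawn. The HOX12 and HOX14 and the 9-cis-epoxycarotenoid dioxygenase lists lie mostly above 0, with medians of 1.65 and 1.31, and the TCP and cell division lists lie around 0, with medians of 0.05. The position of the 5A copy is uncertain because its central day 9 group was at 0.

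Genes of photosynthetic and of vascular tissue also differed in level between the positions. The part of any tissue in the TB1 differences was not tested. In the mean of the 6 days 16.0% of all tested models were called higher and 17.5% lower. Genes of photosynthetic tissue had none of 74 tested of 78 higher and 60 lower in basal spikelets, with a median of -0.60. Their summed FPKM was 418.9 to 549 in basal and 870.3 to 992.2 in central libraries at day 6, and at day 21 and 27 the mean was higher in basal spikelets. Vascular and secondary wall genes had 1 of 33 tested of 87 higher and 21 lower, with a median of -1.29, and a summed FPKM of 48.06 to 53.93 in basal and 74.72 to 76.77 in central libraries at day 6. At day 21 the mean sum of the vascular genes was higher in basal spikelets, at 940.6 against 606, as it was at day 27, at 195.8 against 144.9. Anther and pollen genes had 1 of 102 tested of 148 higher and 11 lower, with a median of -0.40. By edgeR they were called less often than all tested models in either direction. At day 6 the number at 0 was 53 of the 102 in basal and 53 in central spikelets. Of the vascular genes, 4 were at 0 in basal and 6 in central spikelets at day 6. A difference fitted to a group at 0 has no set size, so the anther and vascular medians are poorly set. Inflorescence and floral meristem genes had 12 of 41 tested of 55 higher and 17 lower, with a median of 0.06. Those higher were 7 without basal day 6 replicate 1 or basal day 15 replicate 1 and 6 without basal day 27 replicate 3. Their summed FPKM was 568.3 to 581.1 in basal and 557.8 to 569.4 in central libraries at day 6, the day of the highest 5D level. On every later day the mean sum was lower in basal spikelets, from 512.2 against 656.9 at day 9 to 819 against 996 at day 27.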

How the data were processed

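RNA sequencing libraries of basal and central wheat spikelets were compared, in 12 groups of position and day taken from the labels. The deposited table gave, per the file headers, whole-number estimated counts without normalization and FPKM, both made by the authors. The submitters' processing notes name Bowtie 0.12.2 and mm8 and mm9, builds of the mouse genome, which cannot be that of wheat reads. Which wheat build was used, and how reads were aligned and counted and whether by strand, is not given in the sources used here. Among small counts, 33.9 to 35.6% per library were multiples of 4, against 25% if spread evenly, so a fragment may stand for several counts. The floor for a group at 0 was set at 12 counts per library and covers counting error only.

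The 71963 models that reached FPKM 1 in 2 or more libraries (holding 98.86 to 99.21% of counts) were fitted in edgeR 4.0.16 (R 4.3.3; TMM, 12 group means, quasi-likelihood test), adjusted by Benjamini-Hochberg, with a threshold of 0.05. The SE is the absolute log2 difference over the square root of F. The test was checked on simulated data. Changes were set there only in models of a higher mean count, so the check does not cover groups at 0. Alternatives were DESeq2 1.42.0, limma 3.58.1 on log2(FPKM + 1) and log2(FPKM + 0.1), other scaling and filters, a replicate block, day 9 left out and each library left out.

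The members and gene lists were chosen with earlier results of these data known. Named genes are all TB1 models, the 2 models of smallest p in each context list and the 5 most like patterns for each member; neighbours were named by position. The value of 1 model that this rule names is not reported here. No sequence was printed, because none was given for these models.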

Additional observations from a re-analysis of the deposited data

Results flagged for a closer look

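The basal minus central difference of the 5D copy, TraesCS5D03G0003700, was not the same on all days (edgeR, F test over 5 contrasts, adjusted p = 7.61e-06). The log2 differences were 2.76, 3.24 and 3.0 at day 6, 9 and 12, 1.03 at day 15, 2.77 at day 21 and -0.42 at day 27. At day 27 the central libraries were at 0.24, 0.82 and 1.27 FPKM and the basal ones at 0.44, 0.80 and 0.40, so 2 of the 3 central libraries were above every basal library and the other was below every one.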

How the results depend on the processing

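Under the other tests, scalings and filters that kept them and with each library left out, the 5D copy kept its calls at day 6, 9, 12 and 21 and the 5A copy at day 6, 9, 12 and 21, and both kept theirs in the mean of the 6 days. A filter of FPKM 1 in 17 libraries dropped both, so no value could be had. The sign of the 5D to 5A ratio depended on the value added to each level. Otherwise the cause was not tested for the results that moved. The day 15 difference of the 5D copy passed with limma on log2(FPKM + 0.1), at 1.0 (adjusted p = 0.0485). It was 0.794 to 1.2 with a library left out. The members' summed counts passed at day 15, at 1.34 (adjusted p = 0.00915, edgeR). The day 15 difference of the 5A copy did not pass in the older edgeR form, at 2.41 (adjusted p = 0.0515), and was 2.19 to 2.98 with a library left out. For the 5A copy, the change over days passed by DESeq2 (adjusted p = 0.000194), older edgeR (0.0158) and limma with 1 (0.00035) or 0.1 (0.000622) added. Its adjusted p ranged from 0.0221 to 0.108 with a library left out. The members' summed counts also passed (adjusted p = 3.24e-06, edgeR), which is a test of the sum and not of the 5A copy. The day course of the 5A copy in central spikelets passed by DESeq2 (adjusted p = 0.000273) and older edgeR (0.0185). That of the members' summed counts passed too (adjusted p = 3.27e-05, edgeR), as did that of the 5D copy alone (adjusted p = 2.94e-05, edgeR). The 5D to 5A ratio was reversed with a pseudocount of 1, at 0.348 (permutation p = 0.00567), was -1.91 on counts with 1 added (permutation p = 8e-05), was -0.475 with day 9 left out (permutation p = 0.0524), and ran from -0.578 to -0.383 with a library left out.

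Of all models, 16345 were called at day 15, and 9604 or 10776 without basal day 15 replicate 1 or 2. At day 21 they were 12301, and 7021 or 5987 without central day 21 replicate 1 or 2. For basal day 15 minus central day 12 they were 14897, and 8496 or 9831 without basal day 15 replicate 1 or 2. Among gene lists, 13 in place of 22 cell division genes were higher with day 9 left out, and 2 in place of 4 lower with no filter. Lower dormancy-associated genes were 4 by DESeq2 and 3 by limma in place of 1, lower strigolactone genes 7 in place of 3 with no filter, and lower TCP factors 0 in place of 2 with day 9 left out and 1 with no filter. Lower anther and pollen genes were 27 and 38 by limma with 1 and 0.1 added in place of 11, and lower vascular genes 13 in place of 21 with the stricter filter. Higher inflorescence and floral meristem genes were 6 in place of 12 with no filter and 6 or 7 without 1 of 3 libraries. Other list counts that moved by over 1.5 times, from at most 11, came to 0 to 7 genes.

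Replicate numbers showed no clear pairing of the libraries, since only 2 of 16 same-numbered pairs had deviations correlated over 0.1 (-0.233 to 0.251). Deviations from means of so few libraries cannot exclude a pairing, and the labels do not state one. With the replicate block, 23766 models were called in the mean of the 6 days in place of 24122, the 5D copy was at 2.07 (adjusted p = 6.7e-10, edgeR), and no call of a member changed. Values near 0 to 19 counts, as for the 5A copy in central spikelets, limit every fold there.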
